A study of Homo sapiens with 6 samples.

Results

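Genes of the cytosolic and mitochondrial chaperone families were examined in ME180, an epithelial cell line from a human cervical cancer. The members were chosen by gene name among the protein-coding genes of the deposited table: heat shock protein (HSP), DNAJ, chaperonin (CCT and TCP1) and BAG family names, with the heat shock factors HSF1 and HSF2. Of 96 genes that matched, 7 chaperones of the endoplasmic reticulum (HSPA5, HSP90B1, DNAJB9, DNAJB11, DNAJC1, DNAJC3 and DNAJC10) were left out by name, which left 89 members of 58302 genes in the table. The name rule also took in 3 readthrough loci and 4 genes of other kinds: HSPG2, which encodes the matrix proteoglycan perlecan, HSPB11, an intraflagellar transport subunit, HSPBAP1 and the Hsp70 exchange factor HSPBP1. HSPA13, DNAJB12, DNAJB14 and DNAJC18 are known as proteins of the endoplasmic reticulum, so not every member fits a cytosolic or mitochondrial label. The groups were cells transfected with an siRNA against SGK1 (siSGK1, 3 libraries) and cells transfected with a control siRNA (siControl, 3 libraries), each harvested after 48 h. Both groups were the same unmodified line and both were transfected. SGK1 is a serine/threonine kinase induced by serum and glucocorticoids. The series calls the 3 libraries of a group, numbered 2, 3 and 4, biological repeats.

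Chaperones bind unfolded or partly folded proteins and give them a chance to fold. Hsp70 proteins do this through cycles of ATP binding and hydrolysis: J-domain (DNAJ) proteins bring clients and trigger hydrolysis, and BAG and Hsp110 proteins promote nucleotide exchange. Hsp90 acts later on kinases, steroid receptors and other clients, the ring-shaped chaperonins CCT (cytosol) and HSPD1 with its lid HSPE1 (mitochondrial matrix) enclose clients in a chamber, and small heat shock proteins such as HSPB1 hold clients without ATP. Under proteotoxic stress HSF1 activates many of these genes through heat shock elements, which are inverted repeats of the unit NGAAN. SGK1 itself is a known client of Hsp90 and of the ubiquitin ligase CHIP (STUB1), which also binds Hsp70.

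Reads assigned to genes numbered 28405647 to 35242643 per siSGK1 library and 27262794 to 27874948 per siControl library. SGK1 measured 1.58, 1.70 and 1.81 FPKM (reads per gene, corrected for the length of the gene and the size of the library) in siSGK1, against 3.91, 4.27 and 4.17 FPKM in siControl (adjusted p = 1.88e-05). All 8 epithelial markers were detected, with a summed level of 4997 to 5836 FPKM in siSGK1 and 7967 to 8578 FPKM in siControl. Most of this sum was keratin mRNA, and the part of that difference in the results below was not tested. Of 14 markers of fibroblasts, leukocytes and endothelium, COL1A1 alone had a mean above 1 FPKM. Libraries of a group differed by more than counting noise in each of the 6 pairs (chi-square per degree of freedom of 3.14 to 7.60).

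The chaperone genes moved in both directions, and as deposited the share that was called lay somewhat below that of all tested genes. The 66 members with a mean of at least 1 FPKM were tested, within a single limma fit over 11945 genes, on log2(FPKM + 0.5). At an adjusted p below 0.05, 11 members were called higher and 11 lower in siSGK1, and 44 were not called. These 22 are 33.3% of the tested members, against 40.6% of all tested genes. This order did not hold in every setting. Without a level filter 9 of 85 members were higher and 7 lower, against 11.8% of all genes called. Under TPM scaling 37 of 66 were higher and 3 lower, against 57.05% of all genes called. In both settings the members' share was the larger. Without a filter this is not a like comparison. Of those 85 members 66 had a mean of at least 1 FPKM, and a smaller part of all genes did. The calls in each direction were 16.7% of the members, against 17.9% of all tested genes called higher and 22.7% called lower. The median log2 change was 0.02 for the members and −0.006 for all tested genes. Median sizes regardless of sign were 0.12 and 0.16. With a fold of at least 1.5 there were 4 members, all of them called: HSPD1 and DNAJC22 were higher, and HSPB1 and BAG1 lower. In bulk RNA, fewer cells that express a gene and less of its RNA per cell cannot be told apart.

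The direction counts depended on how the libraries were scaled. As deposited, 50% of the called members were higher, against 44.2% of all called genes. The members' share was 69.2% under quantile normalization (18 higher and 8 lower), 84.4% with total-read scaling (27 and 5) and 92.5% under TPM scaling (37 and 3). Over all called genes it was 51.2%, 73.6% and 82.8% in the same order, so the rise was not particular to the members. The median of all tested genes moved to 0.12 with total-read scaling and to 0.18 under TPM scaling, and the members' median moved with it, to 0.13 and 0.18. Changes below are therefore relative to the typical gene. A set of 10 members kept its calls and directions under all 15 alternatives: HSPD1, DNAJC22, DNAJA1, DNAJC30, CCT5, HSPH1 and HSPA8 were higher, and HSPB1, BAG1 and DNAJB2 lower.

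**Figure D1:**
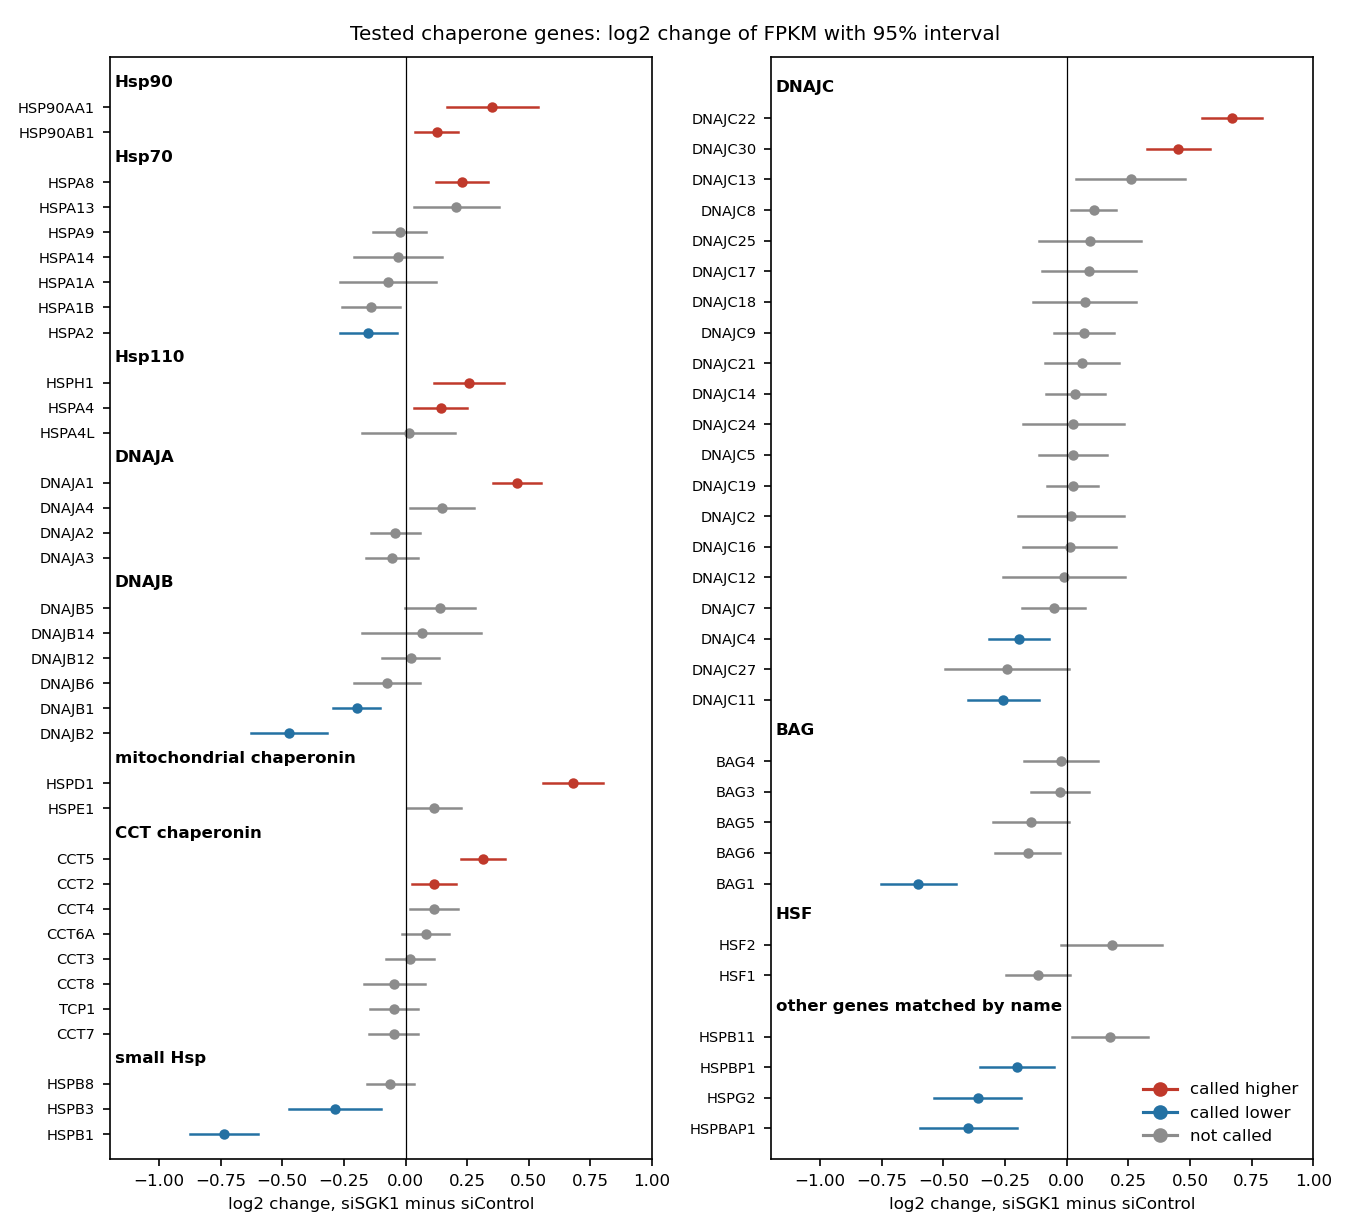
Log2 change (siSGK1 minus siControl, on log2(FPKM + 0.5)) of each of the 66 tested members, with its 95% limma interval, ordered within families; red is called higher, blue called lower and grey not called at an adjusted p below 0.05. HSPD1 (0.68) and DNAJC22 (0.67) lie farthest to the right and HSPB1 (−0.74) farthest to the left.

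Promoter sequence was set beside these calls, because HSF1 is a known regulator of many chaperone genes. RefSeq promoter windows (250 bases before to 50 bases after each start site, GRCh38.p14) were found by symbol for 78 members, in 104 windows. The windows were searched for 3 adjoining units of a heat shock element, spelled GAANNTTCNNGAA on one strand and TTCNNGAANNTTC on the other. The motif was found for 7 of 78 members (8.97%), against 0.608% of all 27305 genes in the promoter table and 0.415% of 8429 tested genes. Of 10 matched members called higher 5 had it, namely HSPD1, DNAJA1, HSP90AA1, HSP90AB1 and HSPA8. Of 11 members called lower 0 had it, and of 38 not called 1 did (DNAJB6). The remaining holder, HSPA6, was below the level filter. Outside the chaperone genes, 29 tested genes had the motif, of which 9 were called higher and 4 lower, against 17.9% and 22.7% of all tested genes. The shorter form with 2 units, GAANNTTC or TTCNNGAA, which lies within every longer match, was found for 27 of 78 members (34.6%) and 16.2% of all genes. It was held by 6 of the 10 members called higher, 3 of the 11 called lower and 9 of the 38 not called. A match is a string of letters in a window and not evidence of binding.

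The windows of the 5 genes that were higher and hold the long motif are shown with that of HSPB1, the largest fall, which holds the short form alone. Capitals mark the long motif in the first 5 and the short one in HSPB1, and HSPD1, HSP90AA1 and HSP90AB1 have other start sites whose windows lack it. In HSPD1 the capitals are 2 overlapping matches, one on each strand.
HSPD1 (chr2:197499791-197500090, minus strand): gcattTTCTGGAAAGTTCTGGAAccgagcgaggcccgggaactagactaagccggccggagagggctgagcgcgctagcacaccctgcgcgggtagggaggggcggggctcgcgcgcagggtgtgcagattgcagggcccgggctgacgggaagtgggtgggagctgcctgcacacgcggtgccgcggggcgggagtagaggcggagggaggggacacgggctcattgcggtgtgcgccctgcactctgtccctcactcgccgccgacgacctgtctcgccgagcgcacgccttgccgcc
DNAJA1 (chr9:33025023-33025322, plus strand): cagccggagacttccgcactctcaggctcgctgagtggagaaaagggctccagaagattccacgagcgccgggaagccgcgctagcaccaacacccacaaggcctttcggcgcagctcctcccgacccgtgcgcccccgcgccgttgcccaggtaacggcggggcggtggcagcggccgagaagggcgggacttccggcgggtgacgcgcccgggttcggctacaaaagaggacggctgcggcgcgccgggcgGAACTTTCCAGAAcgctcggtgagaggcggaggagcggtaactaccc
HSP90AA1 (chr14:102086995-102087294, minus strand): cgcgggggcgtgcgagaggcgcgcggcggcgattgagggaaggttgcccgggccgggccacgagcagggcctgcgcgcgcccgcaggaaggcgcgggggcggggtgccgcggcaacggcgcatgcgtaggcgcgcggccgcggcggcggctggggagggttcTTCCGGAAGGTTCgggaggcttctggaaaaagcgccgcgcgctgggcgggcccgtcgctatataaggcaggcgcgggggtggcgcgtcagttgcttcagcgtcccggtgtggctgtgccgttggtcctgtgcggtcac
HSP90AB1 (chr6:44247693-44247992, plus strand): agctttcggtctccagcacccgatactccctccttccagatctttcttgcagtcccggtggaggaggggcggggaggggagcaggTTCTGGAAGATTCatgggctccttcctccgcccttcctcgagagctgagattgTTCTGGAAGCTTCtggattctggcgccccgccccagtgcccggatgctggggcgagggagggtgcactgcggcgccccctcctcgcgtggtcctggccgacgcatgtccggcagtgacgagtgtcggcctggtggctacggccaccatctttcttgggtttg
HSPA8 (chr11:123062087-123062386, minus strand): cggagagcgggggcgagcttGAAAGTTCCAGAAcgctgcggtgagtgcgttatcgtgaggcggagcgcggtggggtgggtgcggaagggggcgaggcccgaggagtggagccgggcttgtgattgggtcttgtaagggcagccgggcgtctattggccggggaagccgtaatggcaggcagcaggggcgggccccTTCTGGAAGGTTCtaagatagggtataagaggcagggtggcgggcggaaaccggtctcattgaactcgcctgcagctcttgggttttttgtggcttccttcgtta
HSPB1 (chr7:76302423-76302722, plus strand): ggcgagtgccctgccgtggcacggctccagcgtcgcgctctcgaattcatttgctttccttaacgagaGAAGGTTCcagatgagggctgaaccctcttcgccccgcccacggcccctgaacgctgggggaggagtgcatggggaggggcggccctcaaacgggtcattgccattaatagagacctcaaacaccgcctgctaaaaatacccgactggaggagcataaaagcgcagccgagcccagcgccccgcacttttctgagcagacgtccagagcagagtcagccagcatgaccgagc

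Both cytosolic Hsp90 genes were higher in siSGK1. HSP90AA1, the stress-inducible form, measured 208.6, 186.1 and 186.5 FPKM in siSGK1, against 137.0, 149.0 and 170.0 FPKM in siControl. All siSGK1 libraries lay above all siControl libraries, although siControl replicate 4 stood closer to them than the other two. Pseudogenes share 7.97% of the 50-base words of HSP90AA1 and 13.8% of those of HSP90AB1. The log2 change of HSP90AA1 was 0.35 (SE 0.08, adjusted p = 8.94e-03), and the call was lost without a level filter (adjusted p = 0.061). HSP90AB1, the constitutive form, measured 223.2, 222.1 and 223.9 FPKM in siSGK1, against 203.5, 205.8 and 203.4 FPKM in siControl. The spread within each group was narrow, and the change was small (log2 change 0.13, SE 0.04, adjusted p = 0.027). It rested on the full set of libraries, since without siSGK1 replicate 2 or 4 or without any of the siControl libraries the adjusted p was 0.067 to 0.090. Without a level filter it was 0.053, and with the replicate number as a block 0.11. HSP90AA1 made up 48.3%, 45.6% and 45.5% of the FPKM of the pair in siSGK1 and 40.2%, 42.0% and 45.5% in siControl. The groups overlapped slightly, through siControl replicate 4 (exact permutation test, two-sided, p = 0.2). The smallest possible p is 0.1, so this test cannot decide whether the share differed.

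Among Hsp70 genes the constitutive cytosolic form was higher and the stress-inducible pair was not. HSPA8, the main constitutive Hsp70, measured 177.7, 167.7 and 174.6 FPKM in siSGK1, against 153.7, 147.1 and 142.7 FPKM in siControl. The groups did not overlap (log2 change 0.23, SE 0.05, adjusted p = 4.81e-03). HSPA1A and HSPA1B are adjacent stress-inducible genes that encode the same Hsp70 protein. HSPA1A measured 20.8, 17.7 and 18.5 FPKM in siSGK1, against 22.6, 19.0 and 18.6 FPKM in siControl, and the groups overlapped (log2 change −0.07, 95% interval −0.27 to 0.12, adjusted p = 0.53). HSPA1B measured 16.4, 14.9 and 15.6 FPKM in siSGK1, against 17.8, 16.8 and 17.2 FPKM in siControl, and just missed the threshold (log2 change −0.14, adjusted p = 0.056). It was called lower without siSGK1 replicate 2 (adjusted p = 0.044). The transcripts of the pair share 71.3% of their 50-base words, so how reads were divided between them is uncertain. The third stress-inducible gene, HSPA6, had 0.14 ± 0.05 FPKM in siSGK1 and 0.16 ± 0.08 FPKM in siControl (SD, n = 3 each), below the filter.

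Of the 4 other tested Hsp70 genes, HSPA2 alone was called. HSPA9 (mortalin), the Hsp70 of the mitochondrial matrix, measured 64.9 ± 1.5 FPKM in siSGK1 and 66.1 ± 2.8 FPKM in siControl (SD, n = 3 each; log2 change −0.02, 95% interval −0.13 to 0.08). HSPA2, known for its role in sperm development, measured 35.2, 33.4 and 34.8 FPKM in siSGK1, against 39.9, 39.0 and 36.1 FPKM in siControl. It was called lower (log2 change −0.15, adjusted p = 0.044), but its sign turned under TPM scaling (0.0507) and leaving out any library other than siControl replicate 4 ended the call (adjusted p of 0.063 to 0.14). HSPA13 measured 3.56, 3.98 and 3.52 FPKM in siSGK1, against 2.90, 3.05 and 3.44 FPKM in siControl. Its groups did not overlap and its log2 change of 0.21 did not pass (adjusted p = 0.060), but it was called higher with voom, without siControl replicate 4 and under the 3 other scalings (adjusted p of 0.0076 to 0.049). HSPA14, which binds ribosomes, was not called (log2 change −0.03). The 4 other members of the family, HSPA12A, HSPA12B, HSPA1L and HSPA6, had means below 1 FPKM. Of the 2 atypical members HSPA12A and HSPA12B, HSPA12A measured 0.45, 0.46 and 0.53 FPKM in siSGK1, against 0.89, 0.69 and 0.84 FPKM in siControl, and did not pass without the filter (adjusted p = 0.056).

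Of the 3 Hsp110 genes, whose products act as nucleotide exchange factors for Hsp70, 2 were higher. HSPH1 measured 7.71, 8.59 and 7.51 FPKM in siSGK1, against 6.39, 6.41 and 6.83 FPKM in siControl (log2 change 0.26, SE 0.06, adjusted p = 0.011). HSPA4 measured 33.5, 33.2 and 31.3 FPKM in siSGK1, against 28.9, 29.1 and 30.6 FPKM in siControl. The groups were separate by a small margin (log2 change 0.14, adjusted p = 0.039), and leaving out any library other than siControl replicate 4 or siSGK1 replicate 4 ended the call (adjusted p of 0.068 to 0.13). HSPA4L measured 2.40, 2.54 and 2.26 FPKM in siSGK1, against 2.11, 2.41 and 2.62 FPKM in siControl, and was not called (log2 change 0.01, adjusted p = 0.92).

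**Figure D2:**
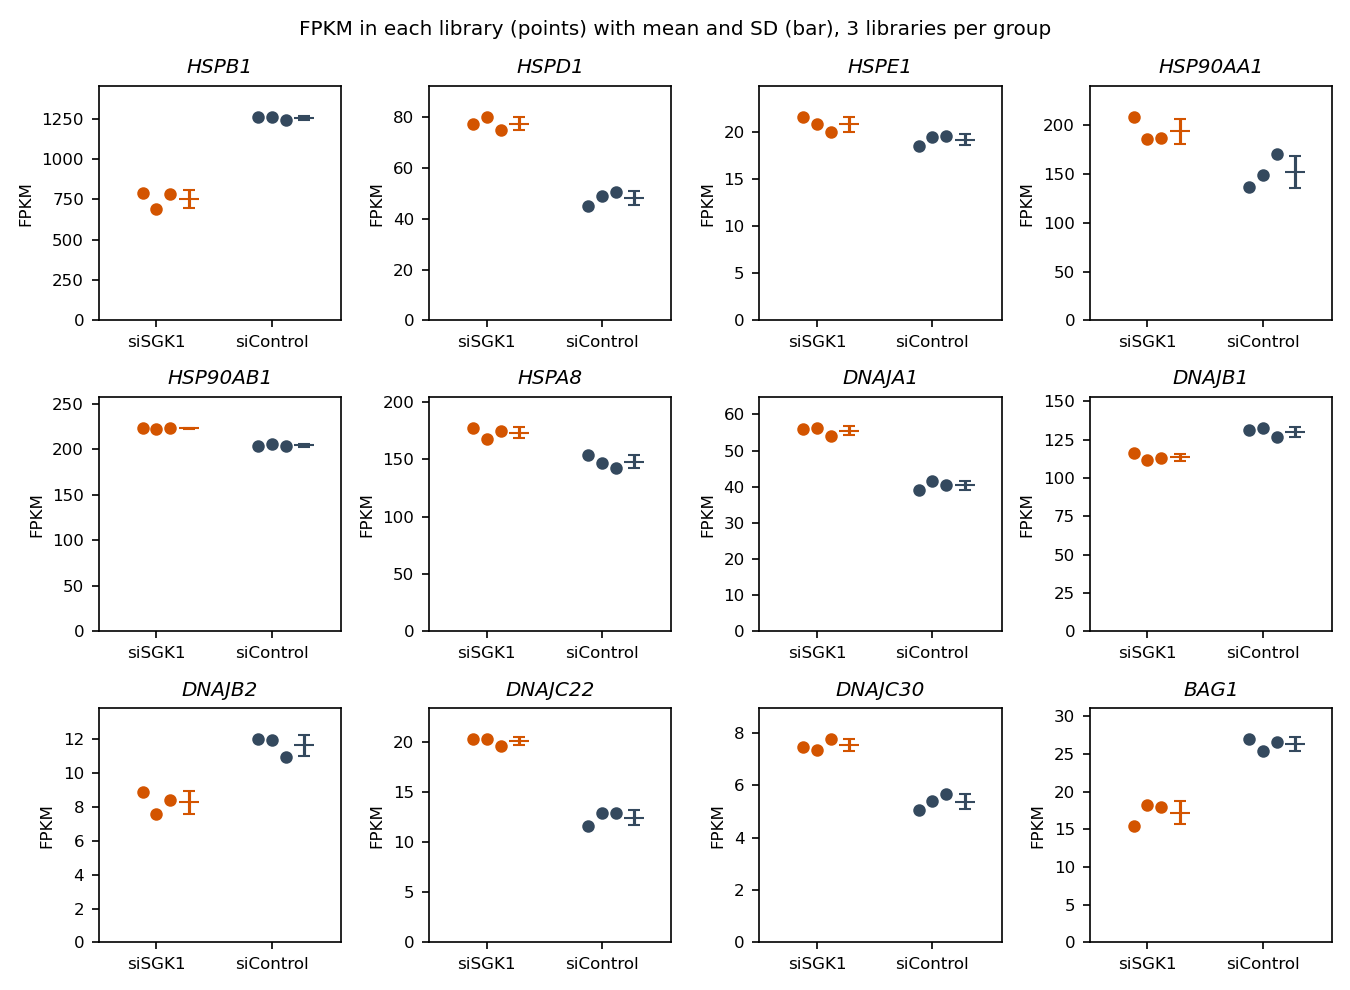
FPKM of 12 members in each library (points, siSGK1 left and siControl right) with the mean and SD beside them (bars, n = 3 each); every axis starts at 0. HSPB1, DNAJB1, DNAJB2 and BAG1 lie lower in siSGK1 and the other 8 higher, with no overlap between groups in any of them; of the 12, HSPE1 was not called.

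The largest rise was in the mitochondrial chaperonin, and it was uneven. HSPD1 (ENSG00000144381, chromosome 2, 197486581 to 197516737, minus strand), the subunit of the folding chamber, measured 77.1, 80.1 and 74.8 FPKM in siSGK1, against 45.1, 48.7 and 50.6 FPKM in siControl. Every siSGK1 library stood far above every siControl library (1.61 times the siControl mean, log2 change 0.68, SE 0.05, adjusted p = 4.35e-05). HSPE1 (197499994 to 197503457, plus strand), which encodes the lid of the same chamber and lies head to head with HSPD1, measured 21.6, 20.8 and 19.98 FPKM in siSGK1, against 18.5, 19.4 and 19.5 FPKM in siControl. It did not pass (log2 change 0.12, 95% interval 0.01 to 0.23, adjusted p = 0.085), but was called higher under quantile normalization, total-read scaling and TPM scaling (adjusted p of 0.029, 0.0033 and 0.0011). HSPD1 made up 78.1%, 79.4% and 78.9% of the FPKM of the pair in siSGK1 and 71.0%, 71.5% and 72.1% in siControl, with no overlap (exact permutation test, two-sided, p = 0.1, the smallest possible). HSPD1 exons, on the opposite strand, cover 14.2% of HSPE1, and exons of a readthrough locus on the same strand also overlap it. Whether reads were counted by strand is not given in the sources used here, which makes the value of HSPE1 uncertain. Of the 50-base words of HSPD1, 11.8% also occur in 2 other loci, mainly the pseudogene HSPD1P1.

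The subunits of the CCT chaperonin, which folds actin and tubulin and is built from 8 different proteins in equal numbers, were mostly level as deposited. CCT5 measured 59.9, 61.4 and 60.4 FPKM in siSGK1, against 48.0, 48.7 and 49.2 FPKM in siControl. It stood apart from its own controls by far more than their spread (log2 change 0.31, SE 0.04, adjusted p = 4.20e-04), although an untested antisense gene covers 30.1% of its exons. CCT2 measured 39.4, 38.7 and 38.8 FPKM in siSGK1, against 36.3, 35.8 and 35.6 FPKM in siControl. It passed narrowly (log2 change 0.12, adjusted p = 0.043), and leaving out any library other than siSGK1 replicate 3 ended the call (adjusted p of 0.078 to 0.14), as did voom on the recovered reads (0.062). CCT4 measured 76.2, 82.1 and 79.5 FPKM in siSGK1, against 73.2, 73.2 and 72.9 FPKM in siControl, with a similar log2 change of 0.12 that did not pass (adjusted p = 0.062; 0.048 and called without siSGK1 replicate 2). CCT7, the most abundant subunit mRNA, measured 155.3, 149.5 and 148.0 FPKM in siSGK1, against 160.5, 156.4 and 151.3 FPKM in siControl (log2 change −0.05, 95% interval −0.15 to 0.05). The log2 changes of the remaining CCT3, CCT6A, CCT8 and TCP1 lay between −0.05 and 0.08 with adjusted p of 0.16 to 0.77. The sign for CCT7 depends on scaling, with a log2 change of 0.16 under TPM scaling, where the typical gene stood at 0.18, and 0.10 under quantile normalization. Quantile normalization, with the typical gene at 0.01, also called CCT4, CCT6A and CCT7 higher (adjusted p of 0.016, 0.015 and 0.042). CCT2 and CCT5 kept their calls there. The testis-enriched CCT6B had 0.32 ± 0.04 FPKM in siSGK1 and 0.30 ± 0.02 FPKM in siControl (SD, n = 3 each), and CCT8L2 was listed at 0 in every library.

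**Figure D3:**
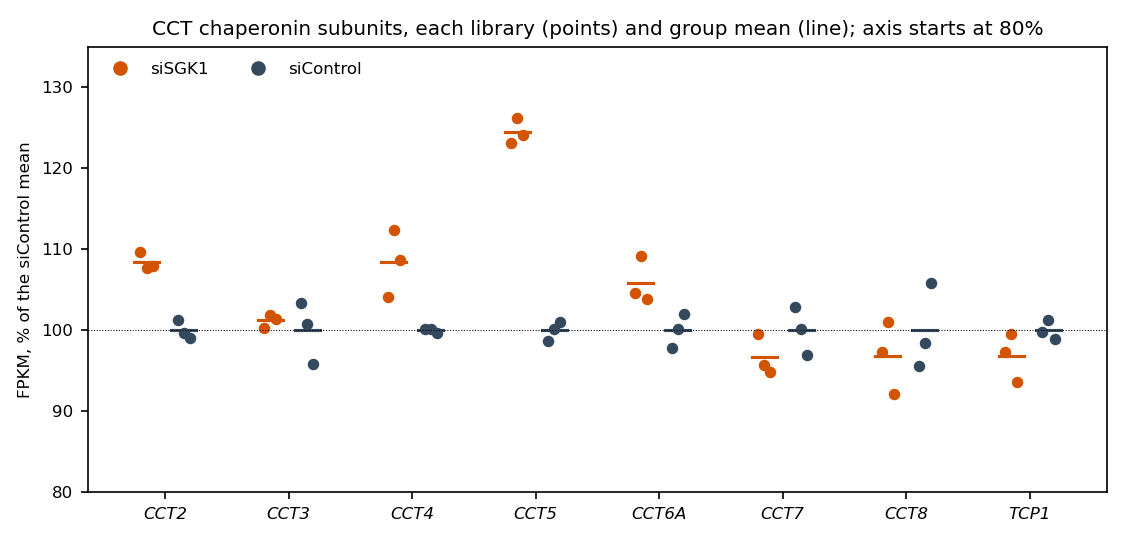
FPKM of the 8 tested CCT subunits in each library as a percentage of the siControl mean of the same gene (points, siSGK1 left and siControl right; lines are group means); the vertical axis starts at 80%. CCT5 is the one subunit whose siSGK1 libraries all lie above 120%.

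Of the 3 tested small heat shock proteins 2 were called lower, one of them HSPB1, which had the highest FPKM of all members. HSPB1 (ENSG00000106211, chromosome 7, 76302544 to 76304295, plus strand), also known as Hsp27, measured 789.4, 688.7 and 784.2 FPKM in siSGK1, against 1262, 1263 and 1242 FPKM in siControl. It ranked 40 by mean level among all tested genes, and its siSGK1 level was 0.601 times the siControl mean (log2 change −0.74, SE 0.06, adjusted p = 5.27e-05). HSPB8, which works with BAG3 in selective autophagy of damaged proteins, measured 33.1, 31.8 and 32.6 FPKM in siSGK1, against 34.2, 34.6 and 33.0 FPKM in siControl, and was not called (log2 change −0.06, 95% interval −0.16 to 0.04). HSPB3, a muscle form, measured 3.69, 2.93 and 3.13 FPKM in siSGK1, against 4.13, 3.84 and 4.21 FPKM in siControl. It was called lower (log2 change −0.29, adjusted p = 0.023) on 503 reads in all, and was not called without siControl replicate 2 or 4 or siSGK1 replicate 3 or 4 (adjusted p of 0.062 to 0.069). It also lost its call with voom on the recovered reads, without a level filter and with total-read and TPM scaling (adjusted p of 0.10, 0.092, 0.11 and 0.26). HSPB2, HSPB6, HSPB7 and HSPB9 had means below 1 FPKM.

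J-domain proteins of the DNAJA and DNAJB classes serve as general Hsp70 partners; the 1 DNAJA gene called was higher and the 2 DNAJB genes called were lower. DNAJA1, a farnesylated cytosolic partner of HSPA8, measured 55.9, 56.3 and 54.1 FPKM in siSGK1, against 39.2, 41.5 and 40.4 FPKM in siControl (log2 change 0.45, SE 0.04, adjusted p = 1.11e-04). DNAJB1 (Hsp40), the stress-inducible partner, measured 116.1, 111.4 and 112.8 FPKM in siSGK1, against 131.2, 132.8 and 126.6 FPKM in siControl. It was called lower (log2 change −0.20, SE 0.04, adjusted p = 5.79e-03) as deposited, but the call was lost under quantile normalization and total-read scaling (adjusted p of 0.17 and 0.16), and under TPM scaling the log2 change was 0.00502. DNAJB2, which binds ubiquitin and directs clients to the proteasome, measured 8.87, 7.57 and 8.39 FPKM in siSGK1, against 12.05, 11.98 and 10.94 FPKM in siControl. The groups were well separated (log2 change −0.47, SE 0.07, adjusted p = 8.88e-04). DNAJA3, a mitochondrial J-domain protein, measured 15.5, 15.4 and 15.4 FPKM in siSGK1, against 16.5, 16.4 and 15.4 FPKM in siControl, and was not called (log2 change −0.06, 95% interval −0.16 to 0.05). DNAJA4 (log2 change 0.15, adjusted p = 0.069) and DNAJB5 (0.14, adjusted p = 0.11) had siSGK1 libraries above all siControl libraries without passing. DNAJA4 was called higher in 5 of 15 alternatives, and DNAJB5 in 2 of the 14 that tested it. DNAJA2, DNAJB6, DNAJB12 and DNAJB14 were not called, with adjusted p of 0.33 to 0.77. DNAJB4, DNAJB7, DNAJB8 and DNAJB13 had means below 1 FPKM.

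The DNAJC class, whose members share little beyond the J domain, held 20 tested members of 25, of which 2 were called higher, 2 lower and 16 not. DNAJC22 (ENSG00000178401, chromosome 12, 49346917 to 49357546, plus strand), a membrane protein whose fly counterpart acts in clathrin-mediated endocytosis, measured 20.3, 20.3 and 19.6 FPKM in siSGK1, against 11.6, 12.9 and 12.9 FPKM in siControl. Its log2 change of 0.67 (SE 0.05, adjusted p = 4.79e-05) was close in size to that of HSPD1. DNAJC30, a mitochondrial protein that helps maintain respiratory complex I, measured 7.46, 7.35 and 7.79 FPKM in siSGK1, against 5.08, 5.40 and 5.66 FPKM in siControl (log2 change 0.45, SE 0.06, adjusted p = 4.21e-04). Exons of BUD23 cover 14.4% of it on the opposite strand. DNAJC11, a protein of mitochondrial membrane organisation, measured 8.92, 8.51 and 9.19 FPKM in siSGK1, against 11.3, 11.1 and 9.80 FPKM in siControl. It was called lower (log2 change −0.26, adjusted p = 0.012), except with total-read and TPM scaling (adjusted p of 0.10 and 0.36), and exons of THAP3 cover 27.9% of it. DNAJC4 measured 10.6, 10.4 and 11.6 FPKM in siSGK1, against 12.4, 12.7 and 12.4 FPKM in siControl. It was called lower (log2 change −0.19, adjusted p = 0.020) but not without siControl replicate 3 or siSGK1 replicate 2 (adjusted p of 0.075 and 0.062), and its log2 change was 0.00267 under TPM scaling.

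The 3 DNAJC mRNAs with the highest FPKM, DNAJC5, DNAJC8 and DNAJC9, were not called. DNAJC5 (cysteine string protein), which protects secretory vesicle proteins, measured 44.0, 38.2 and 43.8 FPKM in siSGK1, against 41.8, 41.8 and 39.9 FPKM in siControl (log2 change 0.03, 95% interval −0.11 to 0.16). DNAJC8, found with splicing complexes, measured 42.9 ± 0.4 FPKM in siSGK1 and 39.7 ± 0.6 FPKM in siControl (SD, n = 3 each) and just missed the threshold (log2 change 0.11, adjusted p = 0.055). It was called higher in 5 of 15 alternatives, among them quantile normalization (adjusted p = 0.0075) and the fit without siSGK1 replicate 3 (0.038). DNAJC9, a histone chaperone, measured 22.3 ± 0.8 FPKM in siSGK1 and 21.2 ± 1.1 FPKM in siControl (SD, n = 3 each; adjusted p = 0.33). DNAJC19, part of the mitochondrial import motor, measured 13.3 ± 0.1 FPKM in siSGK1 and 13.1 ± 0.4 FPKM in siControl (SD, n = 3 each; adjusted p = 0.70). DNAJC13, an endosomal protein, had separate groups and a log2 change of 0.26 that did not pass (adjusted p = 0.061). It was called higher in 4 of the 14 alternatives that tested it. The log2 changes of the other 11 uncalled members ranged from −0.24 (DNAJC27) to 0.10 (DNAJC25). DNAJC6, DNAJC15, DNAJC28 and DNAJC5G had means below 1 FPKM, and DNAJC5B was listed at 0.

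BAG1 was the one BAG gene that fell, and all 5 tested members of the family had log2 changes below 0 as deposited, although under TPM scaling all but BAG1 were above 0. BAG1 (ENSG00000107262, chromosome 9, 33247820 to 33264720, minus strand), an exchange factor that links Hsp70 to the proteasome and also binds BCL2, measured 15.5, 18.2 and 17.9 FPKM in siSGK1, against 27.0, 25.3 and 26.6 FPKM in siControl. Its siSGK1 level was 0.654 times the siControl mean (log2 change −0.60, SE 0.07, adjusted p = 2.28e-04). BAG6, which guards newly made membrane proteins, measured 32.0, 28.0 and 32.1 FPKM in siSGK1, against 34.4, 34.2 and 34.1 FPKM in siControl, and did not pass (log2 change −0.16, adjusted p = 0.058), though it was called with voom on the recovered reads and with a filter at 5 FPKM (adjusted p of 0.024 and 0.042). BAG3, the stress-induced partner of HSPB8, measured 38.6, 38.4 and 42.5 FPKM in siSGK1, against 41.3, 41.1 and 39.2 FPKM in siControl, and the groups overlapped (log2 change −0.03, 95% interval −0.15 to 0.09; 0.17 under TPM scaling). BAG5 measured 11.53, 12.59 and 11.03 FPKM in siSGK1, against 13.8, 12.04 and 13.19 FPKM in siControl (log2 change −0.15, adjusted p = 0.12). BAG4 was not called (log2 change −0.02), and BAG2 had 16 reads in all 6 libraries.

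The heat shock factors themselves did not pass the test. HSF1, the main stress-responsive factor, measured 13.9, 12.6 and 14.1 FPKM in siSGK1, against 15.2, 14.5 and 14.3 FPKM in siControl (log2 change −0.12, 95% interval −0.25 to 0.01, adjusted p = 0.13). HSF2 measured 3.88, 5.04 and 4.61 FPKM in siSGK1, against 3.64, 4.09 and 3.95 FPKM in siControl (log2 change 0.18, 95% interval −0.02 to 0.39, adjusted p = 0.14). Without siSGK1 replicate 2 HSF2 was called higher (adjusted p = 0.024). HSF1 is regulated largely on the protein, so its mRNA level does not measure its activity.

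Of the 4 genes of other kinds taken in by name, 3 were lower. HSPG2 measured 4.71, 3.98 and 4.23 FPKM in siSGK1, against 6.16, 5.23 and 5.63 FPKM in siControl (log2 change −0.36, adjusted p = 6.40e-03). HSPBAP1 measured 1.56, 1.87 and 1.83 FPKM in siSGK1, against 2.50, 2.67 and 2.25 FPKM in siControl (log2 change −0.40, adjusted p = 6.50e-03). Both calls were lost under TPM scaling (adjusted p of 0.069 and 0.062). HSPBP1 measured 51.0, 46.7 and 53.2 FPKM in siSGK1, against 57.2, 62.1 and 54.5 FPKM in siControl (log2 change −0.20, adjusted p = 0.036; log2 change 0.000235 under TPM scaling), and leaving out siControl replicate 2 or 3 or siSGK1 replicate 2 or 3 ended the call (adjusted p of 0.059 to 0.13). HSPB11 was not called (log2 change 0.17, adjusted p = 0.068), but was called higher in 4 of 15 alternatives.

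Summed over families, the picture was dominated by HSPB1. All members together gave 2913, 2763 and 2863 FPKM in siSGK1, against 3230, 3251 and 3221 FPKM in siControl, although the log2 ratio of this sum turned to 0.0198 under TPM scaling. Without HSPB1 the sums were 2124, 2075 and 2079 FPKM in siSGK1, against 1968, 1989 and 1979 FPKM in siControl, so the direction turned. Neither pair of groups overlapped (exact permutation tests, p = 0.1 for both sums, two-sided; 3 against 3 libraries cannot give less). The mitochondrial chaperonin summed to 98.1 ± 3.1 FPKM in siSGK1 and 67.3 ± 3.3 FPKM in siControl, Hsp90 to 416.8 ± 13.0 and 356.2 ± 16.5 FPKM, and DNAJA to 98.8 ± 2.1 and 84.2 ± 1.6 FPKM in siSGK1 and siControl (SD, n = 3 each). The CCT sum was also higher in siSGK1 with no overlap, by 1.035 times, at 540.9 ± 7.0 FPKM in siSGK1 and 522.6 ± 4.4 FPKM in siControl (SD, n = 3 each). So were the Hsp110, DNAJC and Hsp70 sums, by 1.118, 1.067 and 1.059 times. A higher sum is not a rise of each gene. Of the 7 tested Hsp70 genes 5 had log2 changes below 0 (median −0.03), and HSPA8 alone was called higher. Of the 4 DNAJA genes 2 lay below 0, and DNAJA1 alone was called. The sums of DNAJB and BAG genes were lower in siSGK1 as deposited, at 150.9 ± 3.7 and 103.1 ± 3.4 FPKM, against 170.6 ± 4.2 and 117.9 ± 1.9 FPKM in siControl (SD, n = 3 each), and their log2 ratios turned slightly positive under TPM scaling (0.0272 and 0.0114).

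**Figure D4:**
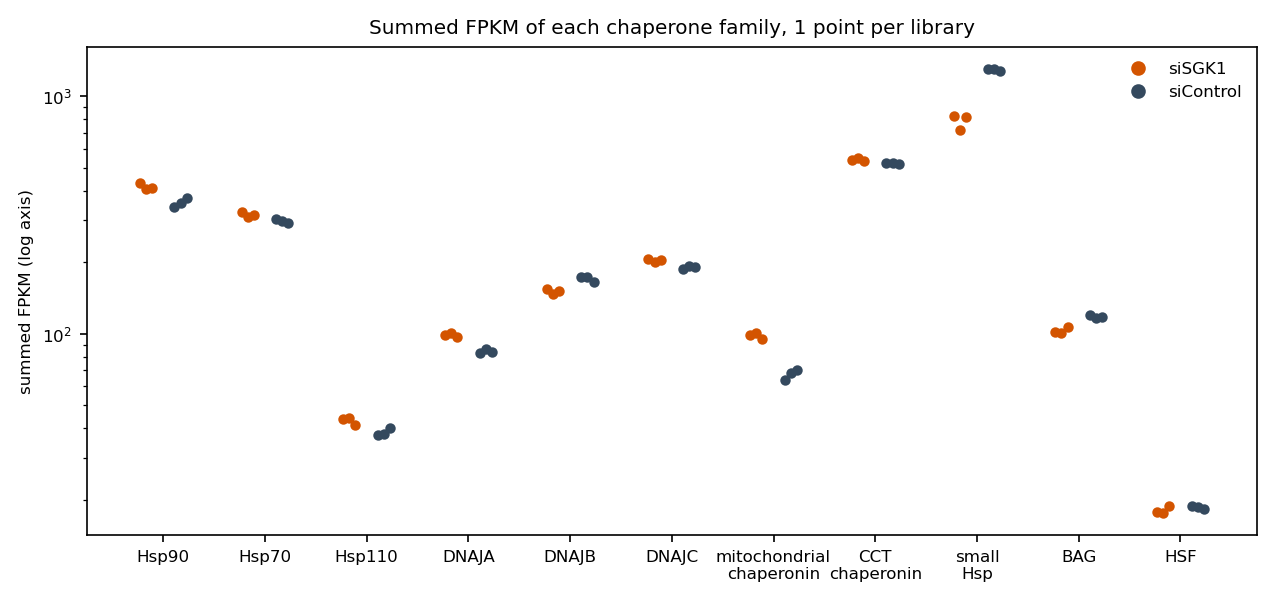
Summed FPKM of each family in each library (points, siSGK1 left and siControl right), on a log axis. Small Hsp sums lie lower in siSGK1 (790.4 on average, against 1294 in siControl), as do DNAJB and BAG sums. Mitochondrial chaperonin, Hsp90, DNAJA, Hsp110, DNAJC, Hsp70 and CCT sums lie higher in siSGK1 with no overlap. A sum follows its most abundant members: 5 of the 7 tested Hsp70 genes had log2 changes below 0.

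Genes that work with these families were also called in both directions. Counts are to be read against all tested genes, of which 40.6% were called, 17.9% higher and 22.7% lower. Of 14 tested Hsp90 co-chaperones 7 were higher and 2 lower (64.3% called). That share was not stable. With the replicate block it was 42.9%, against 38.2% of all tested genes. Without siControl replicate 3 it was 28.6%, below the 31.6% of all tested genes in that setting. Leaving out each other library gave 42.9% or 50%. AHSA1, which stimulates the Hsp90 ATPase, measured 60.9 ± 0.7 FPKM in siSGK1 and 47.3 ± 1.5 FPKM in siControl (SD, n = 3 each; log2 change 0.36, adjusted p = 3.12e-04). NUDC rose by a log2 change of 0.31, PTGES3 (p23) by 0.22 and STIP1 (Hop), which joins Hsp70 to Hsp90, by 0.20 (adjusted p of 1.18e-03, 5.65e-03 and 0.011). Of 8 Hsp70 co-chaperones 2 were higher and 1, HSPBP1, lower (37.5% called, near the share of all tested genes). ST13 (Hip), which stabilises the client-bound state of Hsp70, measured 35.8 ± 0.8 FPKM in siSGK1 and 26.8 ± 0.7 FPKM in siControl (SD, n = 3 each; log2 change 0.41, adjusted p = 1.86e-04), and the mitochondrial exchange factor GRPEL2 had a log2 change of 0.35 (adjusted p = 0.026). STUB1 (CHIP) did not pass (log2 change −0.14, adjusted p = 0.081). Of 6 prefoldin subunits, which hand clients to CCT, PFDN2 was higher (0.14), PFDN4 (−0.22) and PFDN5 (−0.17) were lower, and PFDN1 was not called (−0.06). Under TPM scaling the log2 change of PFDN5 turned to 0.0367 and that of PFDN1 to 0.14, and PFDN5 was not called with total-read scaling or quantile normalization either.

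Among 9 other mitochondrial chaperones and proteases, LONP1, the matrix protease, was the only one called as deposited (4 were called higher with total-read scaling and 5 under TPM scaling). It measured 41.9 ± 2.6 FPKM in siSGK1 and 32.0 ± 2.0 FPKM in siControl (SD, n = 3 each; log2 change 0.38, adjusted p = 1.78e-03). TRAP1, the mitochondrial Hsp90, CLPP and CLPB were not called (log2 changes of −0.12, −0.14 and −0.19, adjusted p of 0.13, 0.065 and 0.097). Of 22 known HSF1 targets, 13 of which are members described above, 11 were higher and 4 lower (50% and 18.2%, against 17.9% and 22.7% of all tested genes), with a median log2 change of 0.12 against −0.006 for all tested genes. The counts were 13 higher and 2 lower under quantile normalization, 14 higher and 2 lower with total-read scaling and 15 higher and 2 lower under TPM scaling. Other settings gave fewer higher: 8 higher and 4 lower without a level filter, and 9 higher and 4 lower with the replicate block. Leaving out single libraries gave 8 to 10 higher and 4 to 5 lower. The 4 with the smallest p were HSPD1, HSPB1, DNAJA1 and AHSA1. Those that were lower included HSPB1, DNAJB1 and CRYAB, the last named after its values were seen (log2 change −0.41). Of the genes on this list described above as stress-inducible or stress-induced, HSPA1A, HSPA1B and BAG3 were not called as deposited. HSP90AA1 was called higher and DNAJB1 lower. The list shares STIP1, AHSA1, CHORDC1, CACYBP and FKBP4 with the Hsp90 co-chaperones. It also holds HSPD1, DNAJA1, HSP90AA1, HSP90AB1 and HSPA8, the members called higher that have the long motif. The counts of these sets are therefore not separate observations.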

How the data were processed

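RNA from ME180 cells was sequenced as polyA libraries (NEBNext Ultra kit after TRIzol extraction), per the labels' protocols. The submitters' processing notes name bcl2fastq 2.19, HISAT2 2.0.5, featureCounts 1.5.0-p3 and hg19. The deposited values are FPKM per gene, 1 column per library, made by the authors. The table's coordinates are those of GRCh38: 97.6% of 58039 identifiers shared with GENCODE 29 had the same position. Treatment of strand and multi-mapping reads is not given in the sources used here. Multiplied by gene length, 100% of values in a library came out as whole reads (tolerance 0.001) once divided by a common factor. The implied library sizes were 1.035 to 1.093 times the totals in siSGK1 and 0.952 to 0.967 times the totals in siControl. The deposited FPKM therefore carry a further scaling that differs between the groups and lowers siSGK1 values relative to siControl. Total-read scaling takes this factor out.

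The limma package (3.58.1, R 4.3.3; moderated two-sided tests with a mean trend) compared siSGK1 with siControl on log2(FPKM + 0.5) over genes with mean FPKM of at least 1, with Benjamini-Hochberg adjustment over all of them. This scale understates changes of low genes. Single values were compared by exact permutation tests (scipy 1.17.1). The fit was tested on simulated data first. Each family's most abundant member, its 3 members with the smallest p, the 10 largest changes, and up to 4 genes of each related list are named by rule. DNAJC4, DNAJC8, the other CCT subunits, members named with a range and genes called outside that rule were added after their values were seen. The members and lists were chosen with earlier results of these data known. Exon overlap and shared 50-base words came from GENCODE 29. Same-numbered libraries of the 2 groups did not deviate together (correlations of 0.12, 0.01 and −0.10), so the numbers were not treated as pairs. Alternatives were other pseudocounts (0.1 and 1), no filter or a filter at 5, 3 scalings, voom, a replicate block and leaving out each library. Some genes of the related lists are not reported here.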

Additional observations from a re-analysis of the deposited data

How the results depend on the processing

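The count of 11 chaperone genes called higher and 11 lower was the same with pseudocounts of 0.1 and 1 and stayed within 1.5 times with voom (14 and 12) and with a filter at 5 FPKM (12 and 10, of 45 genes). Without a filter 9 were higher and 7 lower, under quantile normalization 18 and 8, with total-read scaling 27 and 5, and under TPM scaling 37 and 3. Leaving out each library in turn gave 8 to 11 higher and 8 to 10 lower. With the replicate number as a block (replicate block) there were 8 and 9; CCT2, HSP90AB1, HSPA2, HSPA4 and HSPBP1 lost their calls, and no other member's call changed. What same-numbered libraries share is not given in the sources used here, and the correlations given above cannot settle it. Each member that lost its call this way also lost it when some single libraries were left out. Of related genes that are not members, 12 were called higher and 6 lower; total-read scaling gave 21 and 1, TPM scaling 26 and 1, quantile normalization 3 lower, and leaving out single libraries 7 to 12 higher and 3 to 6 lower, the fewest of both without siControl replicate 3 (7 and 3). Total-read scaling differs from the deposited values only by the library factor described above. The cause of the other shifts was not tested.

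Under TPM scaling, which moves the typical gene by 0.18, the log2 changes of these genes turned positive: BAG3 0.17, CCT7 0.16 (0.10 under quantile normalization), DNAJA3 0.14, HSPB8 0.14, HSPA9 0.18, TCP1 0.15, DNAJA2 0.16 and PFDN1 0.14, each then called, and DNAJB1 0.00502, HSPA2 0.0507, HSPBP1 0.000235, DNAJC4 0.00267 and PFDN5 0.0367, none called. The log2 ratios of the sums turned to 0.0114 for BAG, 0.0272 for DNAJB, 0.16 for HSF (0.10 with total-read scaling), 0.0284 for the 4 genes of other kinds and 0.0198 for all members. Under TPM scaling each of these values is at or below about the shift of the typical gene; under quantile normalization, which left the typical gene at 0.01, that of CCT7 is above it. With 3 libraries a group, exact tests cannot go below p = 0.1.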

Other observations

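Of the 23 members below 1 FPKM on average, 4 were listed at 0 in every library (CCT8L2, DNAJC5B, and the readthrough loci HSPB2-C11orf52 and DNAJC25-GNG10). The other 19 were fitted without the level filter, and 0 were called by limma, with 4 at an unadjusted p under 0.05: HSPA12A, HSPB6, HSPA12B and DNAJC6, named after their values were seen. DNAJC6 (auxilin), which uncoats clathrin vesicles, measured 0.67, 0.94 and 0.84 FPKM in siSGK1, against 0.55, 0.57 and 0.60 FPKM in siControl (adjusted p = 0.19).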
